A study of Mus musculus with 15 samples.

Results

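The immunoproteasome and the genes of MHC class I presentation were followed as 10 genes, *Psmb8*, *Psmb9*, *Psmb10*, *Tap1*, *Tap2*, *Tapbp*, *B2m*, *Nlrc5*, *H2-D1* and *H2-K1*, all of which were found among the 17454 genes of the expression table. The genes were chosen by the difference in RPKM between Tie2-Ezh2-KO and WT libraries, with *Psmb8* set beside its known partners and shared regulators. RPKM divides the reads of a gene by its length and by all reads on genes in the library, so levels can be compared between genes per length. For these 10 genes the contrast of Tie2-Ezh2-KO with WT is therefore a description without a test, and the contrast of Vav-Ezh2-KO with WT, which was not used to choose them, was tested.

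RNA-seq was performed on erythro-myeloid progenitors (EMPs), the first definitive blood progenitors of the yolk sac (YS), sorted from individual YS of C57BL/6 embryos at E10.5. All embryos carried *Ezh2*fl/fl, the conditional allele of the H3K27 methyltransferase of PRC2. The 5 Tie2-Ezh2-KO libraries also carried Tie2-Cre, which recombines in endothelium and so before EMPs emerge. The 5 Vav-Ezh2-KO libraries carried Vav-Cre, the Vav-iCre of the study, which recombines in hematopoietic cells. The 5 WT libraries were *Ezh2*fl/fl without Cre, 3 from the Tie2 line and 2 from the Vav line. The labels give 500 cells for each library, a number that differs from the one in the methods of the study. Between 10407398 and 41025074 reads lay on genes in each library, with a median of 16091836.

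Cells degrade their own proteins in the proteasome, a barrel with catalytic β subunits. In the immunoproteasome the constitutive catalytic subunits encoded by *Psmb5*, *Psmb6* and *Psmb7* are replaced by those of *Psmb8*, *Psmb9* and *Psmb10*, which favours peptides that fit class I molecules. The TAP1 and TAP2 transporter carries the peptides into the endoplasmic reticulum, where tapasin, encoded by *Tapbp*, loads them onto a class I heavy chain paired with β2-microglobulin, and interferons, IRF1 and the transactivator NLRC5 are known to induce most of these genes.

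*Ezh2* was measured first, as a check of the labels. It reached 36.9, 39.5 and 30.1 RPKM in Tie2-Ezh2-WT replicates 4, 10 and 12 and 42.0 and 41.5 RPKM in Vav-Ezh2-WT replicates 4 and 6. In Tie2-Ezh2-KO replicates 7, 9, 11, 13 and 17 it was 27.8, 26.2, 24.8, 29.5 and 26.5 RPKM, below every WT library, and its log2 difference was -0.48 ± 0.12 (SE; limma adjusted p = 0.0418). In the libraries labelled Vav-Ezh2-KO *Ezh2* was 33.7, 42.4, 37.8, 38.1 and 34.0 RPKM in replicates 1, 9, 10, 26 and 28, overlapping WT (log2 difference -0.02 ± 0.11, SE; limma adjusted p = 0.969). A value over the whole gene does not separate the deleted exons from the rest, so in neither knockout does it show the deletion itself. It was lower under the Tie2-Ezh2-KO labels, and it gave no check of the Vav-Ezh2-KO labels, for or against.

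The levels in WT EMPs spanned a wide range. *B2m*, the light chain shared by all class I molecules, was highest at 249 ± 17.8 RPKM (SD, n = 5), followed by *Psmb10* at 136 ± 17.2, the heavy chains *H2-D1* at 67.4 ± 5.29 and *H2-K1* at 44.0 ± 7.87, *Psmb8* at 28.9 ± 4.62 and *Tapbp* at 17.2 ± 2.87 RPKM (SD, n = 5). *Psmb9* at 5.64 ± 1.68, *Tap2* at 3.41 ± 0.864 and *Tap1* at 1.27 ± 0.159 RPKM (SD, n = 5) were far lower. No 2 neighbours in this order overlapped across the 5 WT libraries, while among Tie2-Ezh2-KO libraries *Psmb8* overlapped both *H2-D1* and *H2-K1*. The WT libraries of the 2 lines did not overlap for 3 of the 9 genes above 0.2 RPKM in WT, *Psmb10*, *Tap1* and *H2-K1*, as for 26.0% of all 13100 such genes, and the lines were not tested against each other. *Nlrc5* was listed at 0 in 14 of 15 libraries and at 0.0161 RPKM in Tie2-Ezh2-KO replicate 13, so it was below the filter of 0.2 RPKM and was the 1 gene of the 10 that was not tested. The class I genes share long stretches of sequence and the authors kept 1 alignment per read, so the split of reads between *H2-D1*, *H2-K1* and their relatives is uncertain.

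*Psmb8* encodes β5i, the chymotrypsin-like subunit of the immunoproteasome, and lies on chromosome 17 from 34198195 to 34201454 of GRCm38.p6. In WT EMPs it was 21.6, 28.3 and 34.2 RPKM in Tie2-Ezh2-WT replicates 4, 10 and 12 and 30.9 and 29.3 RPKM in Vav-Ezh2-WT replicates 4 and 6. In Tie2-Ezh2-KO EMPs it was 76.0, 77.8, 69.9, 57.6 and 78.9 RPKM in replicates 7, 9, 11, 13 and 17. All 5 Tie2-Ezh2-KO libraries lay far above all 5 WT libraries, the lowest being replicate 13. The means were 72.0 ± 8.79 against 28.9 ± 4.62 RPKM (SD, n = 5 each), a ratio of 2.50 and a log2 difference of 1.32 ± 0.13 (SE), the contrast that *Psmb8* was chosen by. The values stood on 1267 to 1889 reads per library in Tie2-Ezh2-KO and 275 to 1715 in WT.

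Markers of primitive erythroid cells moved with this contrast. The summed RPKM of the 6 of 7 listed markers found in the table was 319, 590, 865, 200.2 and 292 in Tie2-Ezh2-KO replicates 7, 9, 11, 13 and 17, against 72.5 to 151 in WT and 66.0 to 160 in Vav-Ezh2-KO libraries. All 5 Tie2-Ezh2-KO libraries were above WT, with replicate 11 highest and replicate 13 lowest. The most abundant of the markers was *Hbb-bh1*, 2 of the 6 were called higher in Tie2-Ezh2-KO by limma, and none of the 6 was at 0 in every library. The sort kept cells that were negative for lineage antibodies and positive for KIT, and the share of erythroid cells in the libraries was not measured. *Psmb8* was 69.9 RPKM in replicate 11, with the highest sum, 57.6 RPKM in replicate 13, with the lowest, and highest in replicate 17 at 78.9 RPKM. Whether primitive erythroid cells had any part in the higher *Psmb8* was not tested. In bulk libraries a different mixture of cells and a different level of RNA per cell cannot be told apart.

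In the libraries labelled Vav-Ezh2-KO *Psmb8* was 44.0, 51.6, 26.3, 38.1 and 32.1 RPKM in replicates 1, 9, 10, 26 and 28. Replicates 1, 9 and 26 lay above every WT library and replicates 10 and 28 among them, so the groups overlapped. The mean of 38.4 ± 9.89 RPKM (SD, n = 5) was 1.33 times the WT mean, and the log2 difference of 0.39 ± 0.17 (SE) did not pass the threshold (limma unadjusted p = 0.0367, adjusted p = 0.617). Whether the 2 knockouts differ from each other was not tested for the 10 genes.

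*Psmb9*, the β1i subunit, was 4.89, 5.65 and 4.23 RPKM in Tie2-Ezh2-WT replicates 4, 10 and 12 and 8.50 and 4.91 RPKM in Vav-Ezh2-WT replicates 4 and 6. It reached 12.8, 10.8, 8.29, 8.09 and 13.5 RPKM in replicates 7, 9, 11, 13 and 17 of Tie2-Ezh2-KO. Vav-Ezh2-WT replicate 4 was higher than Tie2-Ezh2-KO replicates 11 and 13, and the other 4 WT libraries were below all of Tie2-Ezh2-KO. The log2 difference was 0.91 ± 0.22 (SE) in Tie2-Ezh2-KO and 0.28 ± 0.20 (SE) in Vav-Ezh2-KO, where the values of 4.93 to 8.96 RPKM overlapped WT (limma adjusted p = 0.757). *Psmb10*, the β2i subunit, is the abundant immunoproteasome subunit of these cells and lies on another chromosome, 8, from 105935728 to 105938392. It ranged from 110 to 154 RPKM in WT, 121 to 157 RPKM in Tie2-Ezh2-KO and 119 to 181 RPKM in Vav-Ezh2-KO libraries, with log2 differences of -0.02 ± 0.11 and 0.16 ± 0.13 (SE; limma adjusted p = 0.781 for Vav-Ezh2-KO). Of the 3 subunits, *Psmb8* was wholly above WT in the Tie2-Ezh2-KO libraries, *Psmb9* was above WT apart from the overlap with 1 library, and *Psmb10* overlapped WT.

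**Figure D1:**
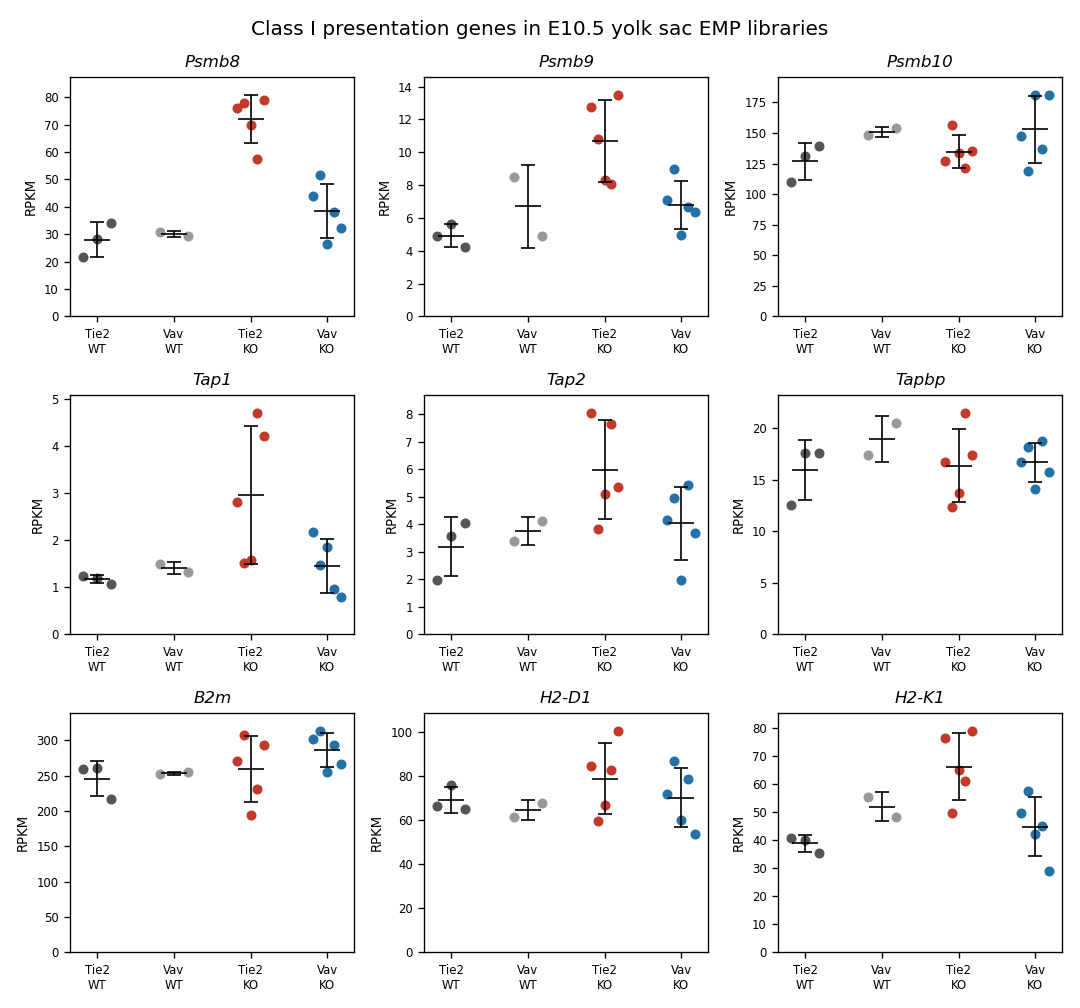
RPKM (vertical axes) of 9 class I presentation genes by group (horizontal axes), where points are libraries and bars are mean and SD (n = 3, 2, 5 and 5 from left to right). The 5 Tie2-Ezh2-KO libraries of *Psmb8* lie between 57.6 and 78.9 RPKM, above all WT libraries, while those of *Psmb10*, *Tapbp* and *B2m* overlap WT.

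Against their constitutive counterparts the immunoproteasome subunits took different shares of the RNA. *Psmb5*, *Psmb6* and *Psmb7* averaged 408 ± 24.9, 782 ± 114 and 256 ± 29.0 RPKM in WT (SD, n = 5). None was called by limma or limma-voom in Tie2-Ezh2-KO, where their log2 differences were -0.04, 0.14 and 0.04 (limma adjusted p = 0.966, 0.872 and 0.969). *Psmb8* made up 6.59 ± 0.828% of the sum of *Psmb8* and *Psmb5* in WT (SD, n = 5), 15.3 ± 1.07% in Tie2-Ezh2-KO and 8.58 ± 2.18% in Vav-Ezh2-KO (SD, n = 5 each). By library the share was 14.8, 14.3, 16.9, 14.7 and 15.9% in Tie2-Ezh2-KO replicates 7, 9, 11, 13 and 17, against at most 7.29% in WT. In Vav-Ezh2-KO it was 9.71, 11.5, 5.74, 8.33 and 7.59% in replicates 1, 9, 10, 26 and 28, above the WT maximum in 4 of 5 libraries. The difference of 1.98 percentage points between Vav-Ezh2-KO and WT did not pass a two-sided exact permutation test over 252 divisions of the 10 libraries (p = 0.0952, adjusted p over 3 shares = 0.286; the smallest p possible was 0.00794). With 1 library left out the difference ran from 1.25 points without Vav-Ezh2-KO replicate 9 (exact permutation test, adjusted p = 0.540) to 2.69 points without replicate 10 (adjusted p = 0.0238), and only the latter passed the threshold. *Psmb9* made up 0.733 ± 0.251% of its pair with *Psmb6* in WT, 1.26 ± 0.403% in Tie2-Ezh2-KO and 0.918 ± 0.252% in Vav-Ezh2-KO (SD, n = 5 each; exact permutation test for Vav-Ezh2-KO, p = 0.286, adjusted p = 0.429). *Psmb10* made up 34.7 ± 3.35% of its pair with *Psmb7* in WT, 33.8 ± 2.62% in Tie2-Ezh2-KO and 35.4 ± 3.68% in Vav-Ezh2-KO (SD, n = 5 each; exact permutation test for Vav-Ezh2-KO, p = 0.810, adjusted p = 0.810).

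**Figure D2:**
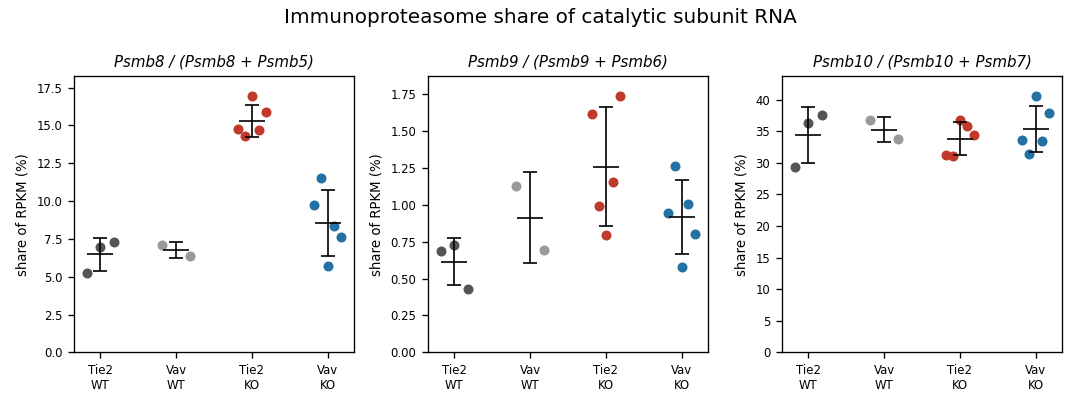
Share in percent (vertical axes) of each immunoproteasome subunit in the RPKM sum with its constitutive counterpart by group (horizontal axes), where points are libraries and bars are mean and SD (n = 3, 2, 5 and 5 from left to right). The *Psmb8* share of Tie2-Ezh2-KO libraries lies between 14.3 and 16.9%, while no WT library exceeds 7.29%.

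The transporter genes flank *Psmb8*. *Tap1* was 1.24, 1.20 and 1.07 RPKM in Tie2-Ezh2-WT replicates 4, 10 and 12 and 1.50 and 1.33 RPKM in Vav-Ezh2-WT replicates 4 and 6. It reached 2.81, 1.53, 1.58, 4.71 and 4.21 RPKM in replicates 7, 9, 11, 13 and 17 of Tie2-Ezh2-KO. All 5 Tie2-Ezh2-KO libraries were above WT, replicates 9 and 11 only just, and replicate 13, the lowest for *Psmb8*, was the highest for *Tap1*. *Tap2* was 3.81 to 8.04 RPKM in Tie2-Ezh2-KO and 1.97 to 4.11 RPKM in WT libraries, and Tie2-Ezh2-KO replicate 9 lay within the WT range. The log2 differences from WT were 0.98 ± 0.32 for *Tap1* and 0.77 ± 0.26 for *Tap2* (SE). In Vav-Ezh2-KO they were 0.10 ± 0.27 and 0.20 ± 0.27 (SE; limma adjusted p = 0.943 and 0.877). *Tapbp* stayed at 12.4 to 21.5 RPKM in Tie2-Ezh2-KO and 14.1 to 18.7 RPKM in Vav-Ezh2-KO libraries, against 12.6 to 20.6 RPKM in WT.

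Of the heavy chains, *H2-K1* was 40.9, 40.2 and 35.4 RPKM in Tie2-Ezh2-WT replicates 4, 10 and 12 and 55.4 and 48.3 RPKM in Vav-Ezh2-WT replicates 4 and 6. The gene reached 76.1, 49.6, 64.9, 60.9 and 78.8 RPKM in replicates 7, 9, 11, 13 and 17 of Tie2-Ezh2-KO. Replicate 9 of Tie2-Ezh2-KO was below Vav-Ezh2-WT replicate 4, and every Tie2-Ezh2-KO library was above the 3 WT libraries of its own line. The log2 difference was 0.58 ± 0.15 (SE) in Tie2-Ezh2-KO and 0.00 ± 0.16 (SE) in Vav-Ezh2-KO, where the values spread from 29.1 to 57.6 RPKM (limma adjusted p = 0.995). Against the 2 WT libraries of the Vav line alone the log2 difference of *H2-K1* in Vav-Ezh2-KO was -0.25 (limma adjusted p = 0.870) and that of *Psmb10* 0.00 (limma adjusted p = 0.999). *H2-D1* overlapped WT in both knockouts, with 59.5 to 100.4 RPKM in Tie2-Ezh2-KO, 53.8 to 86.7 RPKM in Vav-Ezh2-KO and 61.5 to 75.8 RPKM in WT libraries. *B2m* was 194 to 308 RPKM in Tie2-Ezh2-KO and 256 to 313 RPKM in Vav-Ezh2-KO libraries, against 218 to 260 RPKM in WT, and its log2 difference of 0.20 ± 0.08 (SE) in Vav-Ezh2-KO did not pass the threshold (limma unadjusted p = 0.0296, adjusted p = 0.596).

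Counted over the genes, 9 of 10 passed the filter in each contrast, and only the contrast of Vav-Ezh2-KO was tested. In Tie2-Ezh2-KO 2 of the 9, *Psmb8* and *Tap1*, had all 5 knockout libraries above all 5 WT libraries, as 3.29% of all 14154 genes tested did. Since this contrast chose the genes, nothing is read from this count. In Vav-Ezh2-KO limma called 0 of the 9 against 0.00733% of 13646 genes, 2 of the 9 had an unadjusted p under 0.05 against 7.93% of genes, and 0 of the 9 lay wholly above or wholly below WT against 0.601% and 0.806% of genes. On recovered reads limma-voom called 0 genes of the whole table in this contrast. The 2 contrasts share the 5 WT libraries.

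The other genes of these pathways were counted in lists. As the background of each list count, limma called 2.73% of all genes tested in Tie2-Ezh2-KO and 0.00733% in Vav-Ezh2-KO. An unadjusted p under 0.05 was reached by 1552 of 14154 genes in Tie2-Ezh2-KO and by 7.93% in Vav-Ezh2-KO. In the core proteasome 15 of 16 genes tested were not called in Tie2-Ezh2-KO by limma. The exception was *Psma8*, an α subunit best known from testis, at 2.48 to 9.74 RPKM against 8.62 to 12.5 RPKM in WT (log2 difference -1.10 ± 0.28, SE; limma adjusted p = 0.0489). Over the 20 alternatives its log2 difference lay between -1.34 and -0.87, its limma adjusted p between 0.00459 and 0.231, and the threshold was passed in 2. Tie2-Ezh2-KO replicate 9 overlapped WT. None of 31 genes of the proteasome caps and assembly passed the threshold in either contrast with limma, with 0 in Tie2-Ezh2-KO and 1 in Vav-Ezh2-KO at an unadjusted p under 0.05. These include *Psme1* and *Psme2*, the interferon-inducible PA28 cap, at 217 and 225 RPKM in WT, 213 and 216 in Tie2-Ezh2-KO and 227 and 239 RPKM in Vav-Ezh2-KO libraries. In the peptide loading and trimming list 0 of 12 genes were called by limma in either contrast, with 0 in Tie2-Ezh2-KO and 1 in Vav-Ezh2-KO at an unadjusted p under 0.05. In these lists limma-voom called 0 genes in both contrasts. The median log2 difference in Tie2-Ezh2-KO was 0.02 in the core proteasome, 0.02 in caps and assembly and -0.06 in loading and trimming, beside 0.01 over all genes tested.

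Among the other class I genes 0 of 12 tested were called by limma or limma-voom in either contrast, with 0 in Tie2-Ezh2-KO and 1 in Vav-Ezh2-KO at an unadjusted p under 0.05. The most abundant, *H2-T23*, which encodes Qa-1, had 254, 279 and 293 RPKM in Tie2-Ezh2-WT replicates 4, 10 and 12 and 160 and 156 RPKM in Vav-Ezh2-WT replicates 4 and 6. The gene was among the 26.0% without overlap between the lines in WT, and the pooled WT range of 156 to 293 RPKM covered all 5 Tie2-Ezh2-KO libraries except replicate 17 at 297 RPKM.

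Regulators and interferon genes were counted next. None of 21 regulators tested passed the threshold in either contrast with limma or limma-voom, with 3 in Tie2-Ezh2-KO and 1 in Vav-Ezh2-KO at an unadjusted p under 0.05, and their median log2 difference in Tie2-Ezh2-KO was -0.25. *Irf1*, an activator of *Psmb8* and *Tap1*, was 4.28, 1.83, 3.13, 3.38 and 4.35 RPKM in replicates 7, 9, 11, 13 and 17 of Tie2-Ezh2-KO and 3.89 to 13.3 RPKM in WT libraries (log2 difference -0.80 ± 0.32, SE; limma adjusted p = 0.325), with the WT maximum in Vav-Ezh2-WT replicate 6. Of 29 interferon response genes tested 0 were called by limma or limma-voom in either contrast, with 6 in Tie2-Ezh2-KO and 0 in Vav-Ezh2-KO at an unadjusted p under 0.05 and a median log2 difference in Tie2-Ezh2-KO of 0.06. Of the 29 genes 1 lay wholly above and 1 wholly below WT in Tie2-Ezh2-KO, as 3.29% and 0.714% of all genes tested did. The first, *Usp18*, which encodes a protease of ISG15, was at 6.24, 6.32, 6.36, 8.74 and 10.2 RPKM in replicates 7, 9, 11, 13 and 17 of Tie2-Ezh2-KO and at 2.63 to 5.99 RPKM in WT libraries (log2 difference 0.83 ± 0.25, SE; limma adjusted p = 0.112). The second, *Ifi47*, was at 2.04 to 5.03 RPKM against 5.49 to 6.37 RPKM (log2 difference -0.79 ± 0.22, SE; limma adjusted p = 0.0835). Of 11 interferon receptors and ligands tested in Tie2-Ezh2-KO 0 were called by limma or limma-voom, with 2 at an unadjusted p under 0.05. *Tnf*, a cytokine that can induce class I genes, was 2.97 to 8.41 RPKM in Tie2-Ezh2-KO and at most 31.7 RPKM in Vav-Ezh2-KO libraries, while the WT libraries had 9.73 ± 3.77 RPKM (SD, n = 3) in the Tie2 line and 30.7 ± 8.37 RPKM (SD, n = 2) in the Vav line (log2 difference of Tie2-Ezh2-KO from all WT -1.62 ± 0.43, SE; limma adjusted p = 0.0637). For *Tnf* too the WT libraries of the lines did not overlap.

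A class II gene in the neighbourhood of *Psmb8* was higher. *H2-Ab1*, the β chain of class II molecules, which present peptides to CD4 T cells, was 9.66, 4.61 and 7.46 RPKM in Tie2-Ezh2-WT replicates 4, 10 and 12 and 5.97 and 3.70 RPKM in Vav-Ezh2-WT replicates 4 and 6. The same gene reached 37.1, 29.2, 25.8, 20.3 and 25.9 RPKM in replicates 7, 9, 11, 13 and 17 of Tie2-Ezh2-KO. The Tie2-Ezh2-KO libraries lay above all WT libraries without overlap. The log2 difference was 2.15 ± 0.24 (SE; limma adjusted p = 0.000122), and 1 of 9 class II genes tested passed the threshold, while 4 of the 9 had an unadjusted p under 0.05, 3 of them higher and *H2-Oa* lower (-0.79 ± 0.35, SE; limma adjusted p = 0.419). In Vav-Ezh2-KO *H2-Ab1* was 5.93 to 12.8 RPKM (log2 difference 0.60 ± 0.26, SE; limma adjusted p = 0.617). Taken against the WT libraries of each line, the effects of the knockouts on *H2-Ab1* differed by 1.01 on the log2 scale, which did not pass the threshold (limma adjusted p = 0.626). Its partner chain *H2-Aa* was at most 0.349 RPKM in any library.

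*Psmb8* lies in a dense part of the MHC. *Psmb9* and *Tap1* are divergent with 226 bases between them, and 11 genes of the table, *Psmb8* included, lie within 100 kb of it. In Tie2-Ezh2-KO EMPs *H2-DMa* (log2 difference 1.46 ± 0.39, SE; limma adjusted p = 0.0658) and *H2-DMb1* (1.52 ± 0.43, SE; limma adjusted p = 0.0891), which load class II peptides, did not pass the threshold. Next to them *Brd2* (-0.43 ± 0.29, SE; limma adjusted p = 0.739) and *H2-DMb2*, at 0.493 RPKM in WT, were not called. *Brd2* overlaps *H2-DMa* in the annotation, so the assignment of reads in the overlap is uncertain. On the other side of *Psmb8*, *H2-Ob* and *H2-Aa*, both near 0, were not called.

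**Figure D3:**
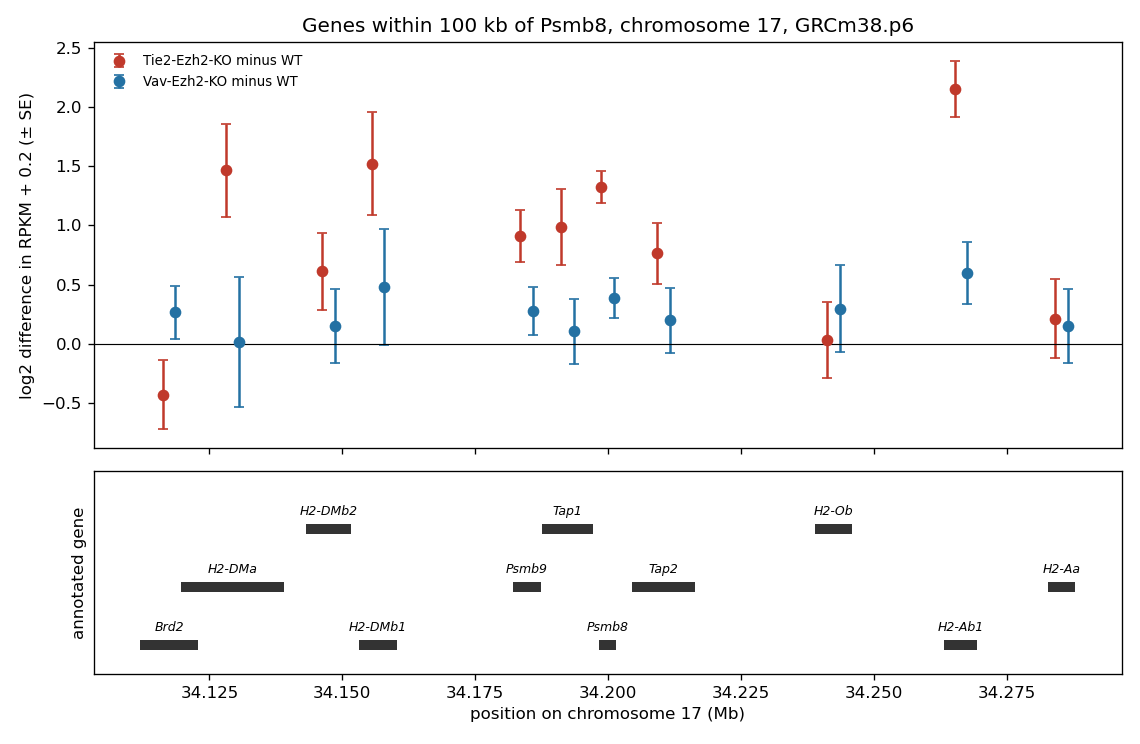
Log2 difference of RPKM + 0.2 from WT (points, with SE as bars, vertical axis) of the 11 genes within 100 kb of *Psmb8* in each knockout, above their positions in Mb on chromosome 17 of GRCm38.p6 (horizontal axis). *H2-Ab1* has a difference of 2.15 and *Psmb8* one of 1.32 in Tie2-Ezh2-KO.

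The profile of *Psmb8* over the 15 libraries was compared with 9885 genes of at least 1 RPKM on average, as the root mean square difference between log2 profiles after subtracting the WT mean of each gene. A gene that did not differ between libraries would be at 0.83. The closest were *Slc30a4* (0.30), *Spint2* (0.30), *Dpp4* (0.31), *Tspan15* (0.35) and *Psmb9* (0.35), while among the other class I presentation genes *Tap2* (0.48) ranked 71, *H2-K1* (0.56) 169, *Tap1* (0.60) 250, *H2-D1* (0.72) 685, *B2m* (0.78) 1365, *Psmb10* (0.85) 3492 and *Tapbp* (0.89) 4770. The measure is led by the contrast that chose the genes, so the ranks describe and test nothing. *Spint2*, an inhibitor of serine proteases, was 27.7 ± 4.48 RPKM in WT libraries and 56.4 ± 8.68 RPKM in the Tie2-Ezh2-KO ones (SD, n = 5 each). *Tspan15*, a tetraspanin, was above all WT libraries in every library of both knockouts, at 5.02 to 8.46 RPKM in Tie2-Ezh2-KO, 4.22 to 5.17 RPKM in Vav-Ezh2-KO and 2.25 to 3.10 RPKM in WT, with log2 differences of 1.22 ± 0.20 and 0.75 ± 0.17 (SE). As these genes were picked by their likeness to *Psmb8*, their differences are a description too.

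Promoter sequences were read for the letters of known motifs. RefSeq promoters of GRCm38.p6, of 300 bases each, were matched for 8 of the 10 genes by symbol, with no entry for *Tap2* and *Nlrc5*. The window held the annotated start of the gene for 7 of the 8, while that of *H2-K1* lay inside the gene, whose annotated start is 34000619. The motifs GAAANNGAA and GAANNGAAA, cores of interferon response elements, TGACG, the core of the X2 box of MHC promoters, and CCAAT, the core of the Y box, were searched on both strands. They were found in 8.56, 7.52, 20.8 and 37.4% of all 32851 promoters. Among the 8 genes TGACG was found in 5 and CCAAT in 6, in *Psmb9*, *Tap1*, *B2m*, *H2-D1* and *H2-K1* together, and *Psmb8* and *Psmb10* held none of the motifs. The windows of *Psmb9* and *Tap1* overlap, so they share their matches. The interferon response cores can overlap each other. *Psmb8* is shown as the gene highest against WT, *Tap1* as its neighbour, *H2-K1* as a heavy chain and *B2m* as the light chain. They are written 5′ to 3′ with all matches in capitals, for *Psmb8* (chr17:34197945-34198244, plus strand), *Tap1* (chr17:34187306-34187605, plus strand), *H2-K1* (chr17:34000298-34000597, minus strand) and *B2m* (chr2:122147437-122147736, plus strand).
Psmb8: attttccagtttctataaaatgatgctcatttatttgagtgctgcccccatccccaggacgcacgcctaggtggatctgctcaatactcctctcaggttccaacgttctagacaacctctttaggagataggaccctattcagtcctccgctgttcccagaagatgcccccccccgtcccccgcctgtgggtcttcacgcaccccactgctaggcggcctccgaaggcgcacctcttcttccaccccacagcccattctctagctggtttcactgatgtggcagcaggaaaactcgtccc
Tap1: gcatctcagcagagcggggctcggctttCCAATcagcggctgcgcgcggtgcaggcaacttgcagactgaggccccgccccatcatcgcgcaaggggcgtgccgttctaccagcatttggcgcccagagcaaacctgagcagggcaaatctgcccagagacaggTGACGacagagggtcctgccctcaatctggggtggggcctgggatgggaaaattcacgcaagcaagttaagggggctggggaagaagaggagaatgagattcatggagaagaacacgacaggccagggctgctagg
H2-K1: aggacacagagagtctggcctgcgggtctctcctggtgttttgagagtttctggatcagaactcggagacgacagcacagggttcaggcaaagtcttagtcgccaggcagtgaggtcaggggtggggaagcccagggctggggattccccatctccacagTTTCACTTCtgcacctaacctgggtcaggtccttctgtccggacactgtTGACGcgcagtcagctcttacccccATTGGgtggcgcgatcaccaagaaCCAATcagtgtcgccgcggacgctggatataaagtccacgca
B2m: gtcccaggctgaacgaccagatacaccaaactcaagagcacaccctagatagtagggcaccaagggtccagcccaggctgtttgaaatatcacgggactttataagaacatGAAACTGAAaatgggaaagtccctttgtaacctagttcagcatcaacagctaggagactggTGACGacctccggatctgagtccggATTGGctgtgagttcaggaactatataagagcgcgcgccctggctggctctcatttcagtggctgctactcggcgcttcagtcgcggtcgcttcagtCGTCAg

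The *Psmb8* window held no match, which says only that these letters are not in it, and that of *Tap1* held 1 each to TGACG and CCAAT. *H2-K1* held 1 match to GAANNGAAA, 1 to TGACG and 2 to CCAAT, and *B2m* 1 to GAAANNGAA, 2 to TGACG and 1 to CCAAT. A match is a string of letters and says nothing of binding.

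Further marker lists were summed to describe the cells. EMP markers, led by *Fcgr3*, whose protein is part of the sort, totalled 279 to 356 RPKM in WT, 205 to 321 RPKM in Tie2-Ezh2-KO and 239 to 429 RPKM in Vav-Ezh2-KO libraries. Of the lists for cells that present antigen or are lymphoid, macrophage markers totalled 73.4 to 108 RPKM in WT, 74.1 to 86.6 RPKM in Tie2-Ezh2-KO and 81.8 to 164 RPKM in Vav-Ezh2-KO libraries, mostly from *Lyz2*, with *C1qa* at 0 throughout. Lymphocyte markers, mostly *Nkg7*, totalled 16.7 to 44.9 RPKM in WT, 18.4 to 42.6 RPKM in Tie2-Ezh2-KO and 26.2 to 55.5 RPKM in Vav-Ezh2-KO libraries, with *Cd4* at 0 throughout. Endothelial markers totalled 36.9 to 42.5 RPKM in WT, 36.2 to 48.1 RPKM in Tie2-Ezh2-KO and 24.9 to 54.9 RPKM in Vav-Ezh2-KO libraries, led by *Pecam1*. *Pecam1* by itself was at 6.67 to 13.8 RPKM in Tie2-Ezh2-KO and 15.4 to 22.5 RPKM in WT libraries. It lay wholly below WT, as 0.714% of all genes tested did. Its difference did not pass the threshold (log2 difference -0.62 ± 0.20, SE; limma adjusted p = 0.150). The other endothelial markers totalled 23.7 to 34.5 RPKM in Tie2-Ezh2-KO and 18.1 to 26.7 RPKM in WT libraries. None of the markers in these 4 lists was called by limma in either contrast.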

How the data were processed

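The deposited table gives RPKM, which the authors made from single-end reads of E10.5 YS EMPs with TopHat2 2.0.13 on GRCm38 and featureCounts. Since cDNA was amplified, reads are not independent molecules. Reads were recovered from the steps between RPKM values, and a length giving whole reads to within 1e-04 was found for each of the 16877 genes detected. Such a length is no check for a gene above 0 in few libraries, so reads are given only for the 13327 genes above 0 in at least 8. Between replicate libraries the mean chi-square of a gene was 15.8 to 125, set against the counting error of independent reads only, so it describes and tests nothing. The 10 genes and all lists were chosen with earlier results of these data known.

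Either knockout was set against all 5 WT libraries in limma 3.58.1 (R 4.3.3), using eBayes with a trend, on RPKM plus 0.2 in log2. A gene entered if any library in the comparison exceeded 0.2 RPKM. Benjamini-Hochberg adjustment ran over all genes entered, at a threshold of 0.05. Differences of low genes are understated on this scale. Shares were tested by exact permutation, and the code was tested on simulated data.

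Genes were named by rule: the 10, their constitutive counterparts, *Psme1*, *Psme2*, *Irf1* and *Ezh2*. From each pathway list came those past the threshold, the 2 most abundant in WT and the 2 with the largest difference in Tie2-Ezh2-KO at 1 RPKM or more. Genes within 100 kb of *Psmb8* and the 5 closest profiles were added. Not every gene the rule names is described. *Ifi47* was chosen after its values were seen. Positions are RefSeq GRCm38.p6. Alternatives were other pseudocounts, filters, scalings and variance models, WT of the same line, all libraries in 1 fit, limma-voom on recovered reads, and leaving out each library. The test of the difference between knockouts was chosen after seeing the data.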

Additional observations from a re-analysis of the deposited data

Results flagged for a closer look

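In 150 groups of 5 libraries of named genes, 10 had 1 library far from the other 4, where chance gives about 1 in 20. Tie2-Ezh2-WT replicate 12, the most deeply sequenced library, was the far one among WT for *B2m* (218 RPKM, the others 252 to 260), *Psmb6* (980 RPKM), *Psme2* (277 RPKM) and *Pomp* (506 RPKM), and Vav-Ezh2-WT replicate 6 for *Irf1* (13.3 RPKM) and *Nfkb2* (1.99 RPKM). The rest were *Psme1* in Vav-Ezh2-KO replicate 28 (253 RPKM), *Npepps* in Tie2-Ezh2-KO replicate 9 (3.67 RPKM), *H2-Oa* in Vav-Ezh2-KO replicate 9 (4.19 RPKM) and *Ifi35* in Tie2-Ezh2-KO replicate 13 (27.8 RPKM). The cause was not tested.

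The effects of the knockouts, each against the WT libraries of its own line, were compared by limma for 143 genes of the lists outside the 10, a test chosen after seeing the data. None passed the adjusted threshold, against 26 of 14394 genes in all, and 11 of the 143 had an unadjusted p under 0.05, against 942 of the 14394. For *H2-Ab1* the difference between the effects was 1.01 on the log2 scale (limma adjusted p = 0.626).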

How the results depend on the processing

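Over the alternatives the log2 difference of *Psmb8* in Tie2-Ezh2-KO lay between 1.22 and 1.40. All 180 values of the 9 genes that passed the filter stayed within 1 SD between replicates, but the small differences of *Psmb10*, *Tapbp* and *B2m* changed sign in some. In Vav-Ezh2-KO none of 180 values passed the threshold (lowest adjusted p 0.495), with log2 differences of 0.27 to 0.51 for *Psmb8*, 0.05 to 0.43 for *Psmb9*, 0.00 to 0.24 for *Psmb10*, 0.02 to 0.42 for *Tap2* and 0.13 to 0.24 for *B2m*, and with changes of sign for *Tap1* (-0.05 to 0.27), *Tapbp* (-0.19 to 0.04), *H2-D1* (-0.04 to 0.13) and *H2-K1* (-0.25 to 0.15). *H2-Ab1* passed it in every alternative, with limma adjusted p from 5.59e-05 to 0.0015. Genes called in Tie2-Ezh2-KO numbered 386, 230 when 1 RPKM in 5 libraries was required, 187 with WT of the same line, 490 with all libraries in 1 fit, and 262 to 438 when 1 library was left out. In Vav-Ezh2-KO 1 gene was called, 2 with a common median or WT of the same line, 0 with limma-voom, and 1 to 2 when 1 library was left out, with 2 without Tie2-Ezh2-WT replicate 10 or 12 or Vav-Ezh2-WT replicate 4. In Tie2-Ezh2-KO *Psma8* was no longer called in 18 of 20 alternatives, with log2 differences from -1.34 to -0.87. Single libraries decided other list calls there: *H2-DMb1* was called without Tie2-Ezh2-WT replicate 10 (log2 difference 1.82), *H2-DMa* without Vav-Ezh2-WT replicate 4 (1.70), *Tnf* without Tie2-Ezh2-WT replicate 12 (-1.93) or Tie2-Ezh2-KO replicate 9 (-1.82), and *Ifi47* without Tie2-Ezh2-KO replicate 17 (-0.93). With all libraries in 1 fit *Tnf* and *Ifi47* were called, and *Ifi47* with a common median. The share difference of Vav-Ezh2-KO from WT when 1 library was left out was 1.25 to 2.69 percentage points for *Psmb8*, past the threshold without Vav-Ezh2-KO replicate 10 (2.69), 0.0994 to 0.284 for *Psmb9*, and -0.737 to 1.61 for *Psmb10*, below 0 without Tie2-Ezh2-WT replicate 4 (-0.737) or Vav-Ezh2-KO replicate 10 (-0.658). The cause was not tested. Against the 2 WT libraries of the same line the difference in share was 1.84 points for *Psmb8*, 0.00513 for *Psmb9* and 0.109 for *Psmb10*, and the exact permutation test of shares allowed no p below 0.0476. No paired analysis was run, because each library came from an individual YS and the labels pair no libraries.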

Other observations

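*Hspa5*, the chaperone BiP of the endoplasmic reticulum, was 489 to 690 RPKM in libraries labelled Vav-Ezh2-KO and 696 to 825 RPKM in WT, without overlap, where 0.806% of genes lay wholly below WT, and its log2 difference of -0.38 did not pass the threshold (limma unadjusted p = 0.00141, adjusted p = 0.519).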
